A study of Drosophila melanogaster with 2 samples.

Results

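The nuclear pore complex genes of Drosophila melanogaster were examined for binding of the tagged protein CG7101. They are the protein-coding genes whose symbol is Nup followed by a number, together with Elys, Ndc1, Sec13, mbo, Gp210 and Megator. This gave 27 of 13945 protein-coding genes on the major arms 2L, 2R, 3L, 3R and X and on chromosome 4. Of these, 26 carried the symbol searched for, and Megator, sought as Mtor, was matched through its older symbols to the gene now called Mgtor. Whole adult females were assayed by ChIP-seq, the sequencing of immunoprecipitated chromatin, in 1 group with 2 biological replicates and no contrast between groups. The flies came from a transgenic line that stably expressed CG7101 fused at its C-terminus to green fluorescent protein (GFP), and sonicated chromatin was precipitated through the GFP tag. The labels give the age of the flies as unknown and do not name the promoter that drives the transgene. Peak lists of 30000 entries were used for replicate 1, replicate 2 and both pooled, and the 6486 strongest pooled peaks made up a shorter list filtered by the irreproducible discovery rate (IDR). Read depth is unknown from these lists, so no counting error can be attached to a peak.

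Nuclear pores are the channels through the nuclear envelope by which proteins and RNA move between nucleus and cytoplasm. The Y complex forms the outer rings of the scaffold and the inner ring lines the membrane pore. Transmembrane proteins anchor the pore, flexible phenylalanine-glycine proteins fill the central channel, and fibres extend on the cytoplasmic side and, as the nuclear basket, on the inner side. In flies several of these proteins also contact chromatin.

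The sequences below lie under 6 of the IDR summits described next. They were chosen because they include the 4 strongest promoter summits of the family (Nup37, Nup133, Nup93-2 and Nup160) and weaker ones that hold ATCGAT (Nup358 and Nup205). Each runs 5′ to 3′ on the coding strand of the named gene, and was read from the RefSeq FASTA of Release 6 (dm6). It covers at most 100 bases to either side of the summit and stops at the first annotated exon. Capitals mark 3 words on either strand. They are the E-box word CAGCTG, the word of the TATA box, which is TATAAA, and ATCGAT, which is the core of the DNA replication-related element (DRE).
Nup37, chr3R:25247515-25247638, plus strand: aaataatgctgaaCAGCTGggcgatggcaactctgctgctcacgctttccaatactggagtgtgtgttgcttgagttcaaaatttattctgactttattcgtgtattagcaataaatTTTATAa
Nup133, chr3R:22690381-22690569, plus strand: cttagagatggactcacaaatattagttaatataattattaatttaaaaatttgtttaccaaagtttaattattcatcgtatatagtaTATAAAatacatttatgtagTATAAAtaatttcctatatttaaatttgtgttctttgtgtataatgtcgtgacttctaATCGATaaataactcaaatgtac
Nup93-2, chr3R:14898380-14898580, minus strand: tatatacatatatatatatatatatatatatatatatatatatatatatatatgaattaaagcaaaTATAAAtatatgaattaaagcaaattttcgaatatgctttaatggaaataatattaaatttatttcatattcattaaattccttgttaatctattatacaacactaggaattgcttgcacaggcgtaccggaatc
Nup160, chr2L:11123603-11123776, plus strand: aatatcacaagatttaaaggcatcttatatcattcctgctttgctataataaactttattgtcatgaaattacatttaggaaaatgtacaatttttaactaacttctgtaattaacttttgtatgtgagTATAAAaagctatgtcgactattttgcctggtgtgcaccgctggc
Nup358, chr3R:25249208-25249347, plus strand: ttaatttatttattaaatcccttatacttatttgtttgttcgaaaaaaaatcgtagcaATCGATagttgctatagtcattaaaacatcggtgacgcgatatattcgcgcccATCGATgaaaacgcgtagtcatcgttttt
Nup205, chrX:19852060-19852213, plus strand: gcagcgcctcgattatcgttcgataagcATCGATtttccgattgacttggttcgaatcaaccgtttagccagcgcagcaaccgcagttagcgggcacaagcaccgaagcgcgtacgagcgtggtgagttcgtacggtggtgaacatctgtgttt

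CG7101 was found at the promoters of 13 nuclear pore genes. A gene counted as bound when the summit of an IDR peak lay within 500 bp of one of its annotated transcription start sites (TSSs), which held for 13 of the 27 genes (48.1%) and for 33.3% of all 13945 protein-coding genes. The longer pooled list, which holds weaker peaks as well, placed a summit at 22 of the 27 (81.5%), against 62.9% of all genes. No test was run on these shares, since there is no contrast between groups and genes are not replicates. By place in the pore, IDR summits marked 7 of 10 genes of the Y complex, 2 of 6 of the inner ring, 0 of 2 of the membrane proteins, 1 of 3 of the central channel, 1 of 3 of the cytoplasmic side and 2 of 3 of the nuclear basket. In whole flies, strong binding in few cells and weak binding in many cannot be told apart.

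**Figure D1:**
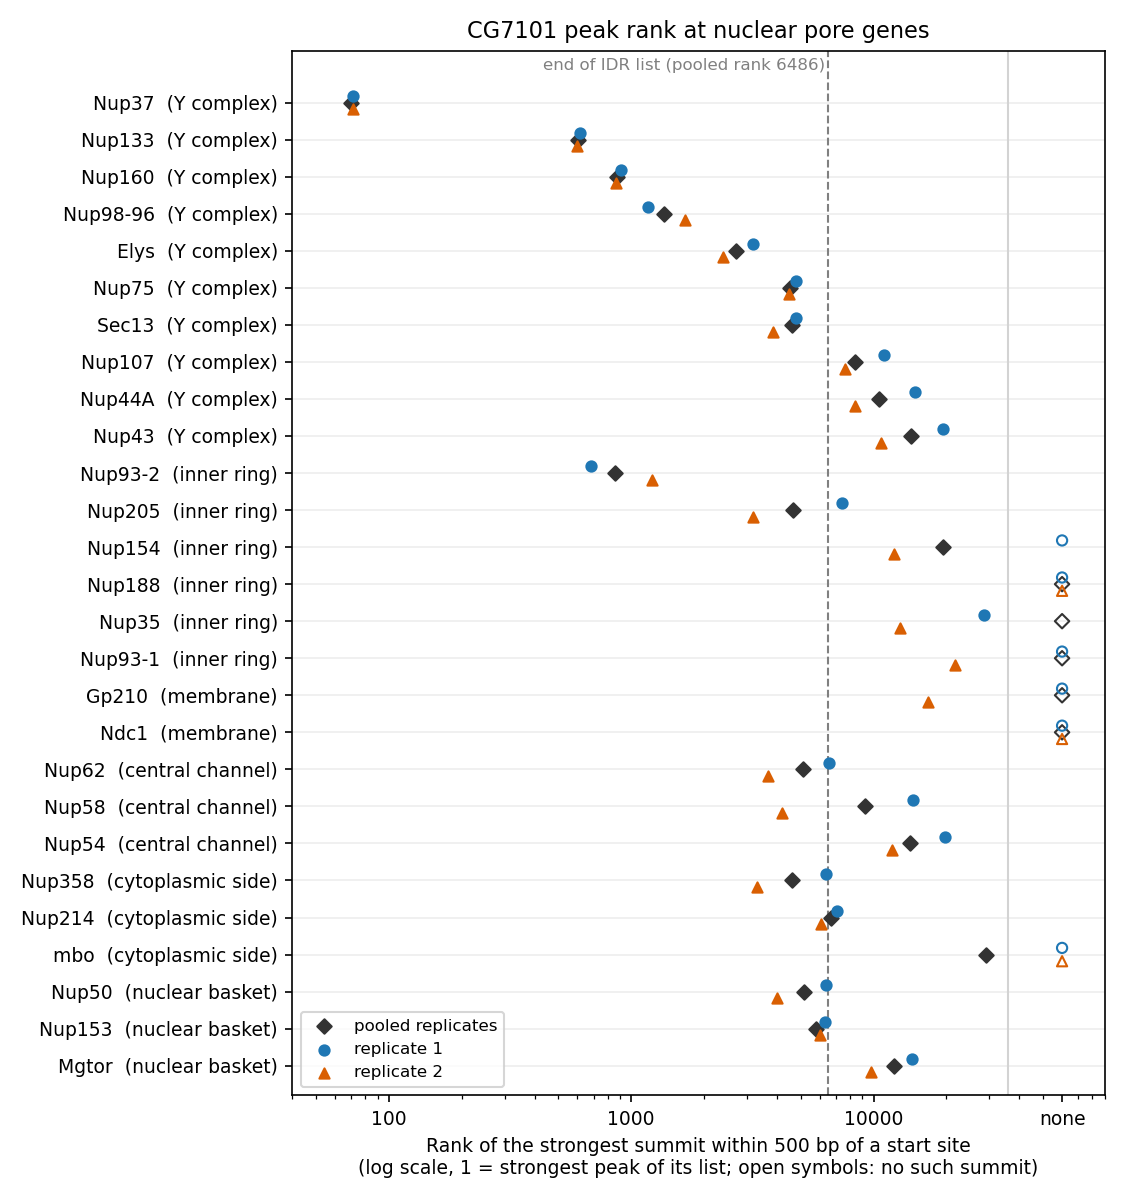
Rank of the strongest summit within 500 bp of a TSS for each of the 27 genes, on a log scale with rank 1 the strongest peak of its list, in the pooled list (diamonds), replicate 1 (circles) and replicate 2 (triangles). Open symbols at the right mark lists with no such summit, and the dashed line marks pooled rank 6486, where the IDR list ends. Nup37 stands near rank 70 in all 3 lists, and Ndc1 and Nup188 have no summit in any.

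Of the 6 strongest promoter peaks of the family, 5 lay at genes of the Y complex, which has 10 of the 27 genes. At Nup37, Nup133 and Elys the summit lay nearer to the TSS of a neighbouring gene. Peak strength is the value given by the authors' caller, on a scale that is not stated, and is compared here only within 1 list. The peak at Nup37, a beta-propeller subunit of the Y complex, had a pooled strength of 2258 and ranked 70 of the 6486 IDR peaks. It spanned 3R from 25247272 to 25247921, with the intergenic summit at 25247538, 120 bp upstream of the Nup37 TSS. That summit lay closer to RpS27, 24 bp from its TSS. RpS27 encodes a protein of the small ribosomal subunit and starts 144 bp from the Nup37 TSS on the other strand. In the replicates the Nup37 peak had a strength of 1239 (replicate 1) and 1025 (replicate 2) and ranked 71 in both. A weaker IDR summit of strength 327 lay 82 bp downstream of the Nup37 TSS.

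Nup133 and Nup160, large scaffold subunits of the Y complex, followed. The Nup133 peak (3R, 22690301 to 22690638) had a pooled strength of 783, with 430 in replicate 1 and 351 in replicate 2, at ranks 612 and 600. Its intergenic summit at 22690469 lay 138 bp upstream of the Nup133 TSS and 89 bp from that of wfs1, the fly wolframin gene. The Nup160 peak (2L, 11123530 to 11123848) had a pooled strength of 628, with 341 in replicate 1 and 287 in replicate 2. Its summit at 11123703 lay 74 bp upstream of Nup160, in the stretch that separates it from Csl4, a subunit of the RNA exosome. Both genes kept nearly the same place in the 2 replicates, since Nup160 ranked 909 and 867.

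Nup98-96 encodes a precursor that is cleaved into the mobile phenylalanine-glycine protein Nup98 and the Y complex subunit Nup96. Its peak (3R, 23781433 to 23781713) had a pooled strength of 465, with 287 in replicate 1 and 184 in replicate 2, at ranks 1177 and 1663. The summit at 23781574 lay inside the Nup98-96 5′ UTR, 47 bp past the TSS. A second IDR summit of strength 171 lay 155 bp upstream, beside the start of mbc, which encodes an activator of the GTPase Rac. Elys, the chromatin-binding protein that brings the Y complex to chromosomes after mitosis, had a peak of strength 282 (X, 19652100 to 19652294). It measured 139 in replicate 1 and 143 in replicate 2. Its summit at 19652198 lay 107 bp upstream of Elys and within the 5′ UTR of Ranbp21, a gene for a nuclear export receptor that starts 36 bp from Elys on the other strand. The peak therefore counts for a pore gene and for a transport receptor.

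The other Y complex peaks were weak. Nup75 had a strength of 191 (2R, 18167011 to 18167426, summit at 18167219), with 103 and 91.3 in the replicates, and its intergenic summit lay 79 bp upstream of Nup75 and nearer to CG42518 and MED9, a Mediator subunit gene. Sec13, shared with the COPII coat of secretory vesicles, had a strength of 189 (3R, 23356018 to 23356433), with the intergenic summit at 23356226, 52 bp upstream of Sec13. Its strongest promoter summit measured 103 in replicate 1, 52 bp upstream, and 101 in replicate 2, 207 bp upstream. The 2 replicate values are thus for different summits. The neighbour of Sec13 across the pooled summit was ATPsynCF6, an ATP synthase subunit gene. Nup107, Nup44A (the fly Seh1) and Nup43 had no IDR summit at a TSS. Their pooled summits reached 112, 89.5 and 63.9, and all 3 genes had summits in both replicate lists.

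Among inner ring genes, Nup93-2 and Nup205 were bound. The Nup93-2 peak (3R, 14898291 to 14898743) was the third strongest of the family at 638, with 405 in replicate 1 and 229.7 in replicate 2, at ranks 685 and 1217. Its summit at 14898480 lay 108 bp upstream of the TSS, and another of strength 211 lay at -332 bp, towards CG3817. The 201 bases around the main summit had the lowest GC content among the bound pore genes, 18.9%. Nup205, one of the large inner ring subunits, had a strength of 186.6, with 70.7 in replicate 1 and 116.4 in replicate 2 and an intergenic summit 91 bp upstream of its TSS, shared with pico. It ranked 7442 in replicate 1 and 3176 in replicate 2, the widest gap between replicates among the bound genes.

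The other inner ring genes and both membrane genes lay outside the IDR list. Nup154, a scaffold subunit with roles in germ cell development, had a pooled summit of strength 45.2, 6 bp past its TSS, with a summit in the replicate 2 list (38.4) and none in that of replicate 1. Nup93-1, the paralogue of Nup93-2, had no pooled summit and a single weak one of 20.9 in replicate 2. Nup35 had weak summits at different positions in the replicates and none in the pooled list. They were 17.7 at 219 bp past the TSS in replicate 1, with a q value of 0.258, and 36.0 at 33 bp upstream in replicate 2. Gp210, a transmembrane protein of the pore, had a summit of 27.6 in replicate 2 and none in the pooled list. Nup188 and the transmembrane gene Ndc1 had no summit within 500 bp of a TSS in any list.

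Bound genes of the channel, the cytoplasmic side and the basket all had weak peaks. Nup62, a central channel protein, had a strength of 172.9 with the summit 4 bp past the inner of its 2 annotated TSSs. It measured 79.2 in replicate 1 and 104.9 in replicate 2. Its channel partners Nup58 and Nup54 reached 102 and 64.8 in the pooled list. Nup358, the large Ran-binding protein of the cytoplasmic filaments, had a strength of 188 with the summit 40 bp upstream, and measured 80.8 and 113 in the replicates. Nup358 starts 1477 bp from Nup37 on the same strand, and each gene had its own peak. Nup214 had a pooled summit of strength 138.7 that lay 335 bp upstream of its TSS and 30 bp from that of ReepA. With the IDR list ending at 142.0, Nup214 was the pore gene just outside it, and Nup153 was the one just inside. The cytoplasmic gene mbo, the fly Nup88, had the weakest pooled summit, with a strength of 28.5 and a q value of 0.263, and no summit in either replicate list.

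In the basket, Nup153 had a strength of 156.5 with the summit 6 bp past the TSS, and measured 81.5 and 72.3 in the replicates. Nup50 had a strength of 172.8 with the summit 31 bp upstream, and measured 81.1 and 98.8. Mgtor, the long coiled-coil protein of the basket, was outside the IDR list, with a pooled strength of 76.9 and summits of 36.8 and 47.3 in the replicates. So 2 of the 3 basket genes had IDR peaks, and both lay in the lower part of the strength range.

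The bound pore genes had a lower median peak strength than bound genes in general. The strongest promoter summit per gene had a median strength of 191 over the 13 bound pore genes, with quartiles of 186.6 and 628, against 289 over all 4641 bound genes, with quartiles of 196 and 504. Of the 13 genes, 5 lay between 465 and 2258, Elys was at 282, and 7 were at 191 or less. In the IDR list Nup133 ranked 603, Nup93-2 854, Nup160 871, Nup98-96 1363 and Elys 2698. The weaker group ran from Nup75 at rank 4517, Sec13 at 4597, Nup358 at 4616 and Nup205 at 4666 to Nup62 at 5139, Nup50 at 5142 and Nup153 at 5782. Thus 5 of 13 exceeded the median of all bound genes. These medians are descriptions and the difference was not tested.

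**Figure D2:**
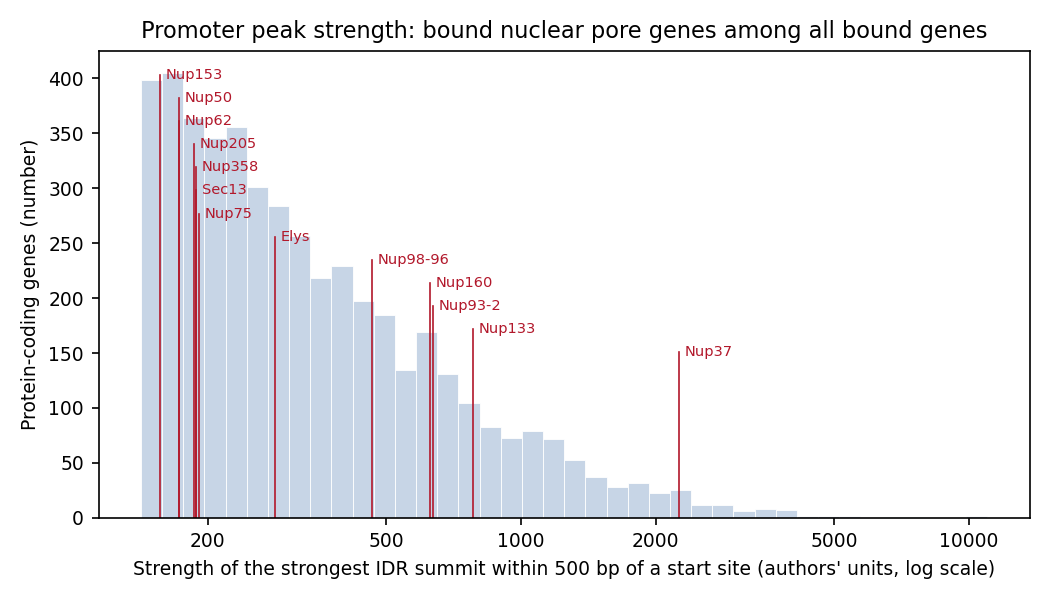
Strength of the strongest IDR summit within 500 bp of a TSS for the 4641 bound protein-coding genes (bars, number of genes, log strength axis), with the 13 bound pore genes as labelled lines. The lines fall into a group at 191 or less, Elys at 282, and 5 genes from 465 to 2258.

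All 13 bound pore genes had a promoter summit in both replicate lists, which says nothing further about them, since the IDR list was itself derived from both. Ranks differed between replicates by a median of 1.33-fold, from 1-fold at Nup37 to 2.34-fold at Nup205. At Sec13 the 2 ranks belong to different summits. Replicate 2 gave the better rank to 10 genes, Sec13 among them, and replicate 1 to 2 genes, Nup98-96 and Nup93-2. Neither the rank differences nor these counts were computed over all bound genes, so they cannot be read as a trait of pore genes. Of the 9 genes with a pooled summit only, 7 had one in both replicates, though at Nup58 the strongest lay at -373 bp in replicate 1 and -11 bp in replicate 2. Of the 5 with no pooled summit, 3 had one in a replicate list. Some of these replicate calls were marginal, with q values of 0.0537 at Nup54 and 0.258 at Nup35 in replicate 1 and 0.0532 at Nup93-1 in replicate 2. The replicate 1 list placed a summit at 77.8% of the pore genes and 62.2% of all genes, and the replicate 2 list at 88.9% and 61.8%. Shares of all genes for the 2 smaller sets were not computed.

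Most summits lay upstream of the start site, near the start of a neighbouring gene. The strongest summit lay upstream of the TSS at 10 of the 13 bound genes (76.9%), against 85.2% of all bound genes. All 10 lay no more than 150 bp upstream, where 50.1% of all bound genes had theirs, and the median position was -74 bp against -107 bp. These positions were not matched for the spacing of start sites. Another TSS lay within 500 bp of their own for 12 of the 13 bound pore genes, against 2566 of all 4641 bound genes. By annotation 9 summits were intergenic and 4 were in a 5′ UTR, at Nup98-96, Nup62, Nup153 and, for Elys, in Ranbp21. At 12 of the 13 genes (92.3%) the same summit also lay within 500 bp of the TSS of another protein-coding gene, against 55.2% of all bound genes. Among bound genes with another TSS within 500 bp of their own, the summit was shared at 12 of 12 pore genes and at 93.4% of all genes, so the shares were close once the spacing of start sites was matched. Nup358, which has no such neighbour, was the exception. At 6 of the 13 the TSS nearest to the strongest summit belonged to the neighbour. When each summit was counted only for the gene with the nearest TSS, 8 pore genes remained bound (29.6%, against 25.2% of all genes). Nup133, Elys, Nup75, Nup205 and Nup50 were lost, and Nup37 was kept through its second summit.

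**Figure D3:**
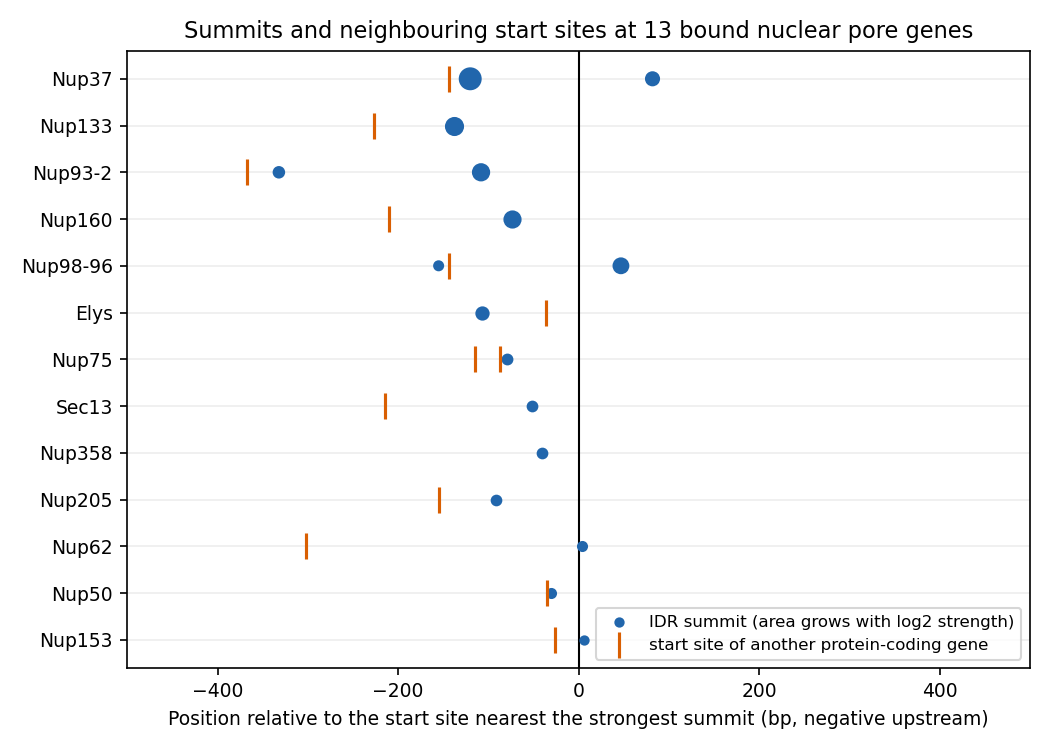
Position of IDR summits (circles, area growing with log2 strength) and of start sites of other protein-coding genes that share the strongest summit (orange bars), in bp from the TSS of each of the 13 bound pore genes, negative upstream. At 12 genes an orange bar lies upstream of the TSS, and 10 strongest summits lie within 150 bp upstream.

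Pore genes often start close to another gene, and most bound ones did. The nearest TSS of another protein-coding gene lay within 500 bp for 17 of the 27 pore genes (63.0%), against 30.9% of all protein-coding genes. In that class 12 of 17 pore genes were bound (70.6%, background 59.5%). The 5 that were not bound were Nup188, Nup44A, Nup214, Gp210 and Nup43. With the nearest TSS over 500 and up to 1000 bp away, 0 of 6 pore genes were bound, against 29.3% of all genes in that class. Among genes with another TSS anywhere within 1000 bp, 12 of 23 pore genes were bound (52.2%), against 51.1% of all genes. The shares were thus close at that distance. With none within 1000 bp, 1 of 4 was bound, Nup358, against 19.9%. The 4 genes in the last class were Nup358, mbo, Mgtor and Ndc1. The bound genes had a neighbouring TSS at a median of 155 bp and the other 14 at a median of 526.5 bp. A summit between start sites up to 500 bp apart can count for both genes, so these shares depend in part on the counting rule, and the classes were chosen after the values were seen. The difference between classes was not tested.

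**Figure D4:**
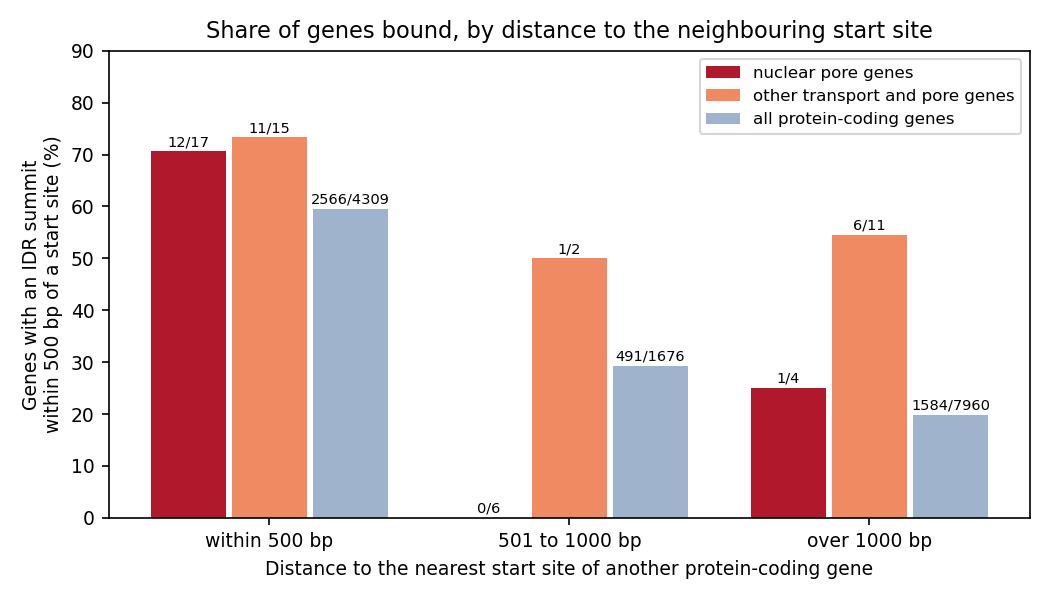
Share of genes with an IDR summit within 500 bp of a TSS (percent, bars from 0), by distance to the nearest TSS of another protein-coding gene, for the 27 pore genes, 28 other transport and pore genes, and all protein-coding genes. Numbers over bars are bound genes of all genes in the class. For pore genes the shares are 12 of 17, 0 of 6 and 1 of 4.

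Short words known from fly promoters were sought around the summits. Within 100 bp of the strongest summit, on either strand, TATCGATA (the DRE) occurred at 2 of 13 genes, Nup75 and Nup50 (15.4%, against 8.98% of the 3918 IDR summits at protein-coding promoters). Its core ATCGAT, which TATCGATA contains, occurred at 6 of 13 (46.2%, against 20.0%), namely Nup133, Nup75, Nup205, Nup358, Nup50 and Nup153. In the sequences printed above, Nup358 holds 2 copies, the nearer 11 bp from its summit. TATAAA occurred at 7 of 13 (53.8%, against 33.7%). Nup133 holds 2 copies, and its summit falls on the first base of the upstream one. Motif 1 (GGTCACACT) occurred at 1 gene, Nup62, CAGCTG at 2, Nup37 and Sec13, and GAGAG at 1, Elys, against 4.80%, 13.3% and 23.1% of promoter summits. At Nup37 the E-box lies 5 bp from the summit of the strongest peak.

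The same words occurred in promoters of bound and of unbound pore genes. In the 250 bases before and 50 after the outermost TSS, TATCGATA occurred in 7 of the 27 pore promoters, 2 of bound and 5 of unbound genes, against 9.37% of all protein-coding promoters. The core ATCGAT occurred in 14, 7 of bound and 7 of unbound genes (23.3% of all promoters), and TATAAA in 17, 9 and 8 (45.9%). Motif 1 occurred in 4, 2 and 2 (6.05%), CAGCTG in 6, 3 and 3 (17.7%), and GAGAG in 4, 3 and 1 (29.8%). A match is a description of the letters and not a binding site.

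Many other genes of nuclear transport were bound too. A list of 28 genes for other pore components, importins, exportins, the Ran cycle and messenger RNA export held 18 bound genes (64.3%), beside the 33.3% of all protein-coding genes. A pooled summit was present at 27 of the 28 (96.4%, against 62.9% of all protein-coding genes). The 18 bound genes had a median promoter strength of 277. All 5 Ran cycle genes were bound, 8 of 12 importins, 3 of 5 exportins, 1 of 3 messenger RNA export genes and 1 of 3 other pore components. The strongest peaks were those of Tnpo-SR, an import receptor for splicing factors (1216), Kap-alpha3, an importin alpha (1093), RanGAP, the GTPase activator of Ran (887), and msk, an importin of the importin 7 type (626). The other pore components were named after their values were seen. Of them Rae1 was bound (270), and Gle1 and Aladin had pooled summits of 123 and 93.1. With the nearest other TSS over 1000 bp away, 6 of 11 transport genes were bound (54.5%, against 19.9% of all genes in that class). The difference between the pore and transport lists was not tested.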

How the data were processed

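Peak lists for each replicate, for the pooled replicates and after IDR were used as deposited by the authors, on dm6. Per the deposited descriptions, the peak files derive from the replicates' alignments and a further file also used for control-normalized tracks, which was not analysed here. Neither the aligner nor the peak caller is given in the sources used here, nor the cutoff used for IDR. The peak signal (strength) is the value deposited by the authors. The lists also hold the −log10 of a q value as deposited, used here for a few weak peaks. Depth is unknown.

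Genes and TSSs came from Ensembl release 115. Coordinates count from 1, and summits are peak start plus offset. Every annotated transcript start of a protein-coding gene counted, and a gene's strength is that of its strongest summit within 500 bp. Strength was compared within a list and ranks between lists. Shares were set beside those of all protein-coding genes, with no test. All members are named, the 8 strongest with coordinates, and the 4 strongest transport genes. The members, gene lists and words were chosen with earlier results of these data known. Summit assignment and word search were checked on simulated data. Values were computed in Python 3.11.15 with pandas 2.3.3 and numpy 2.4.6, and figures drawn with matplotlib 3.10.9.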

Additional observations from a re-analysis of the deposited data

How the results depend on the processing

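The count of 13 bound pore genes stayed within 1.5 times under windows of 250 bp (13, 48.1% against 28.6% of all genes) and 1000 bp (18, 66.7% against 36.8%). It did so with the outermost TSS only (13, 48.1% against 30.9%) and with a TSS inside the peak interval (11, 40.7% against 23.7%). The 1000 bp window added Nup154, Nup35, Nup44A, Nup58 and Nup93-1. At all of these but Nup44A, the nearest IDR summit lay nearer to the TSS of another gene. Without Mgtor the count was 13 of 26 (50%, against 33.3%), an alternative chosen after the data were seen. The count moved to 8 with each summit given to its nearest TSS (29.6%, against 25.2% of all genes) and to 6 with the 3243 strongest IDR peaks (22.2%, against 19.8% of all genes). It moved to 1 among the 4 genes with no other TSS within 1000 bp (25%, against 19.9% of all such genes), a smaller set by construction. With the 6486 strongest peaks of 1 replicate it was 15 without replicate 1 (55.6%, against 32.9% of all genes), where Nup214 and Nup58 were added. Without replicate 2 it was 11 (40.7%, against 33% of all genes), where Nup205 and Nup62 were lost. The transport count went from 18 of 28 (64.3%, against 33.3% of all genes) to 6 of the 11 genes with no other TSS within 1000 bp (54.5%, against 19.9%), with fewer genes in the set. The pooled count of 22 (81.5%, against 62.9% of all genes) stayed within 1.5 times, at 16 to 24. The 16 came with nearest-TSS assignment (59.3%, against 53.7% of all genes). The 24 came with a 1000 bp window (88.9%, against 67.7%) and without replicate 1 (88.9%, against 61.8%). The count of 2 genes with TATCGATA moved to 0 of 8 with nearest-TSS assignment, to 1 within 50 bp of the summit and to 6 with ATCGAT. The median strength was 191 to 262 and the median position -107.5 to -18 bp over the alternatives, with no replicate error to set them against. Weak peaks near strength 142 and 30000-peak list ends limit which genes count. With 2 replicates, no spread can be estimated for a gene.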

Other observations

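Some pore genes carried IDR summits away from their start sites. Sec13 held one of strength 425 in its intron, 548 bp from a TSS, stronger than the 189 at its promoter. Nup44A held one of strength 236.7 in an intron that overlaps ACC, and another of strength 284 lay 540 bp from its nearest TSS, in an intron of ACC. In mbo, a summit of strength 185.5 lay in the 3′ UTR, 2482 bp from its TSS.

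Several unbound pore genes lie beside a bound neighbour. The nearest IDR summit to Nup154 was 675 bp away, 8 bp from the TSS of the ribosomal protein gene RpL9 (strength 471). That of Nup58 was 651 bp away, 11 bp from the TSS of Vha13, a subunit of the vacuolar ATPase (176). That of Nup93-1 was 559 bp away, 40 bp from the TSS of Clic, a chloride intracellular channel gene (242). Nup43, Nup188 and Mgtor were the farthest, at 27019, 19012 and 19905 bp from the nearest IDR summit.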
